A study of Mus musculus with 16 samples.

Results

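Complement genes that myeloid cells themselves express were followed in monocytes and macrophages sorted from mouse sarcomas: C1qa, C1qb and C1qc, C2, C4b, Fcna, C3, Cfb and Cfp. They are the 9 of 30819 gene identifiers in the expression matrix that carry one of these symbols in the deposited tables of differential expression. Together they cover recognition molecules and early components of the classical and lectin pathways and the central component C3. They also cover a protease and the positive regulator of the alternative pathway. The comparison of interest was how much RNA for each arm the tumour's own monocytes and macrophages held, and whether that differed in mice without host C3.

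Cells of MN/MCA1, a chemically induced mouse sarcoma line, had been placed under the skin of C3 wild-type or C3-/- mice, all given as C57BL/6J, and tumours were taken on day 21. Each tumour gave sorted monocytes and macrophages. Both were CD45+ CD11b+ cells without Ly6G and CD11c, of which the Ly6C+ F4/80- cells were taken as monocytes and the F4/80+ Ly6C- cells as macrophages. Each mouse gave both cell types, so the 4 groups of 4 libraries came from 4 wild-type mice (mice 1 to 4) and 4 knockout mice (mice 6 to 9). The knockout is of the host: the same sarcoma line was injected in both genotypes, and neither the age of the mice nor the allele is given in the sources used here. Libraries were made from 5 ng of RNA with a full-length, unstranded low-input kit and sequenced on an Illumina NextSeq, with 18689320 to 29049207 reads per library in the matrix.

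Complement is a cascade of blood and tissue proteins that tag surfaces and call in leukocytes. In the classical pathway C1q binds a target and its proteases cleave C4 and C2; in the lectin pathway ficolins and other lectins take the place of C1q. In the alternative pathway factor B pairs with deposited C3b, and properdin holds the resulting enzyme together. All arms meet at C3. Most circulating components come from the liver, whereas C1q and properdin come largely from myeloid cells.

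The sorted cells carried the transcripts of their gates. Ly6c2, which encodes the Ly6C sorting antigen, stood at 12400 to 19100 normalised reads (reads divided by the library's size factor) in wild-type monocytes and at 3.69 to 19.1 in wild-type macrophages. Adgre1, which encodes F4/80, stood at 26600 to 27700 in wild-type macrophages and 5450 to 6570 in wild-type monocytes. Ly6g was at or near 0 in every group. Transcripts of Itgax, which encodes CD11c, were present in all groups (1930 to 6730) although the gates were CD11c-. The 3 hepatocyte markers found by symbol summed to at most 3.25 normalised reads in any library.

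The complement RNA of macrophages was nearly all C1q. The 9 genes took 1.387 to 1.438% of all reads in wild-type macrophages and 0.2182 to 0.2809% in wild-type monocytes, and the C1q chains alone took 1.286 to 1.34% and 0.09565 to 0.1583%. C3 made up 1.284% ± 0.228 (SD, n = 4) of the reads of the 9 genes in wild-type macrophages and 26.22% ± 2.79 in wild-type monocytes. Per kilobase of exon, the only scale on which genes are compared here, the order in wild-type macrophages was C1qb (113600 normalised reads per kb, rank 5 of the 11721 genes ranked), C1qa (62930), C1qc (51590), Cfp (9610), C3 (779.3), Fcna (264.4), Cfb (101.0), C4b (97.98) and C2 (3.758). All neighbours in that order were separated over the 4 mice except Cfb and C4b. In wild-type monocytes C1qb was again first (14120 per kb, rank 60 of 11933), followed by Cfp (7996), C1qa (4850), C1qc (4172), C3 (2947), Cfb (153.7), C4b (46.65), Fcna (16.02) and C2 (1.521), and only C1qa and C1qc overlapped. The knockout groups had the same order except that C4b (77.79 per kb) and Cfb (53.91) changed places in macrophages; there Fcna, C4b and Cfb overlapped with their neighbours, and in knockout monocytes C1qb overlapped with Cfp and C1qa with C1qc.

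**Figure D1:**
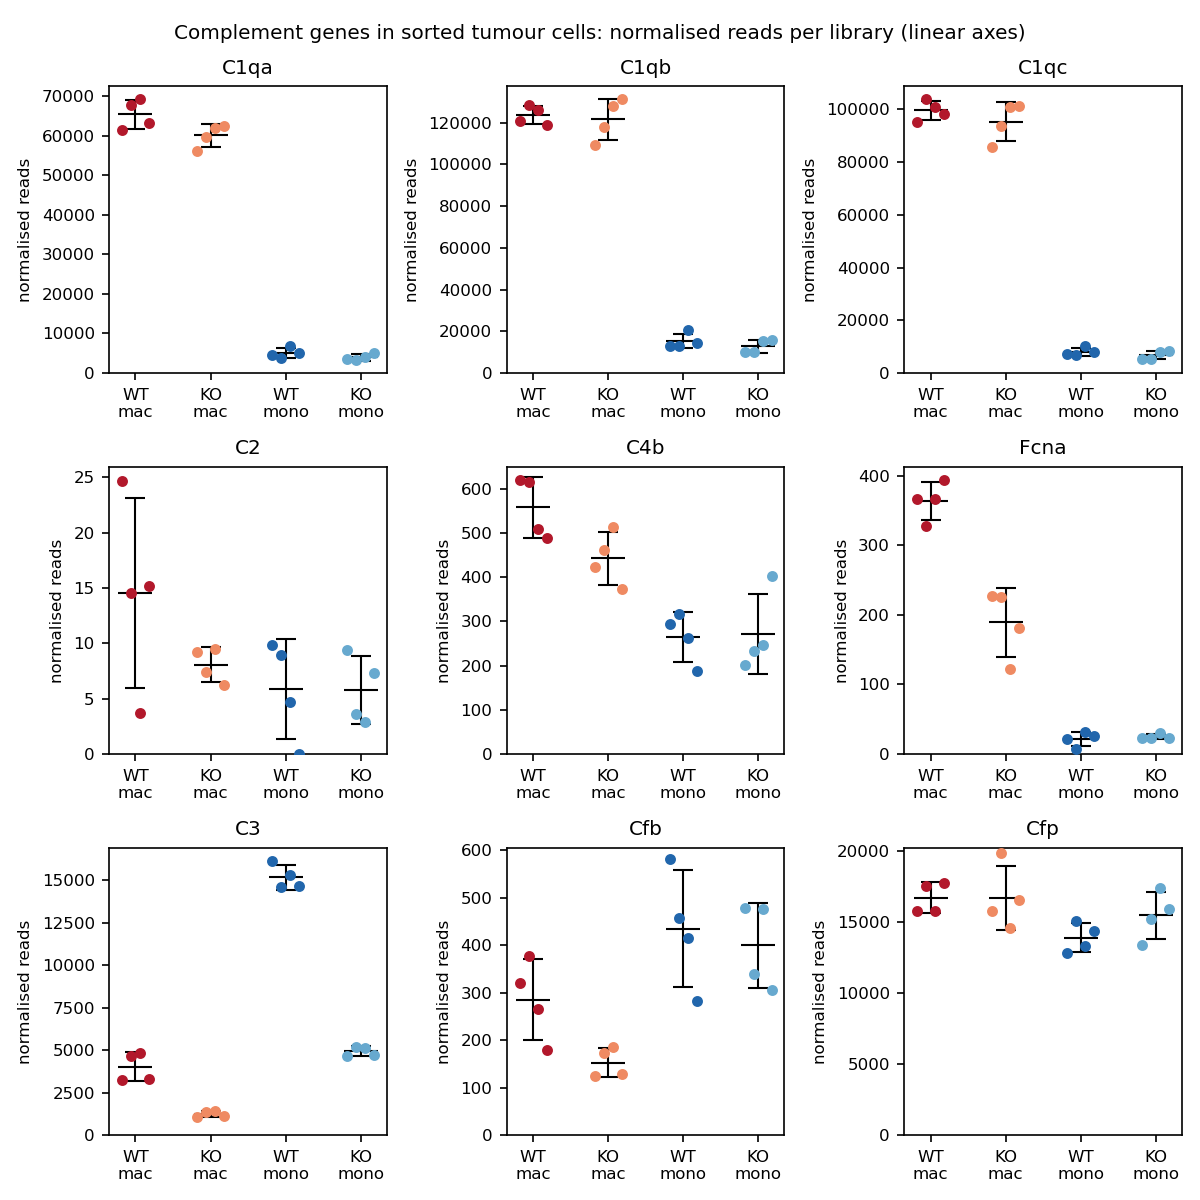
Normalised reads (reads divided by the library's size factor; linear axes from 0) of the 9 complement genes in each library, with the group mean ± SD; WT and KO are C3 wild type and knockout, mac and mono are macrophages and monocytes, 4 mice each. The C1q genes and Fcna sit higher in macrophages, C3 and Cfb sit higher in monocytes, and C3 is lower in both knockout groups.

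Differences were tested with limma on the deposited log2 values over every gene that reached 10 on the linear scale in 4 libraries of the comparison, with Benjamini-Hochberg adjustment over all genes tested and a call at an adjusted p under 0.05. C2 did not reach that level, so 8 of the 9 genes were tested. The deposited values behave as regularised logarithms, a transformation not named in the sources used here, which pulls the differences of scarce and variable genes towards 0. Folds are therefore given from mean normalised reads, and the log2 differences with their standard errors belong to the test. In bulk samples, more RNA per cell and more cells that carry the RNA cannot be told apart.

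In wild-type mice 7 of the 8 tested genes differed between macrophages and monocytes, 6 higher in macrophages and C3 lower; of all 12769 genes tested, 63.4% were called. In C3 knockout mice 7 of 8 were called as well, 5 higher and 2 lower, where 60.5% of 12772 genes were called. The median log2 difference (macrophages minus monocytes) of the 8 genes was 1.47 in wild-type and 1.19 in knockout mice, against -0.01 and 0.00 over all genes tested. Both comparisons use the same mice for macrophages and monocytes, and the ratio within each mouse is plotted below for each gene.

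C1qa, C1qb and C1qc encode the A, B and C chains of C1q, the recognition molecule of the classical pathway, which takes up the chains in equal number. They lie side by side on the minus strand of chromosome 4 (GRCm38; C1qb at 136880129-136886187, C1qc at 136889804-136893065, C1qa at 136895917-136898803), each with 3 exon blocks in the GENCODE annotation. C1qa had 61510, 67830, 69270 and 63190 normalised reads in the macrophages of wild-type mice 1 to 4, and 4441, 3897, 6843 and 4996 in their monocytes. The groups were far apart, with a macrophage to monocyte ratio within a mouse of 10.1 to 17.4. The test gave the same direction for C1qa (log2 difference 2.65 ± 0.09 SE, limma adjusted p = 7.49e-09).

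C1qb was the most abundant of the family in every library. It stood at 120800, 128600, 126100 and 118900 in the macrophages of mice 1 to 4 and at 13150, 13150, 20620 and 14530 in their monocytes, a ratio of means of 8.05 (2.16 ± 0.09 SE, adjusted p = 7.05e-09). C1qc stood at 95360, 103900, 101000 and 98260 in macrophages and at 7271, 6731, 10340 and 7879 in monocytes, a ratio of 12.4 (2.59 ± 0.07 SE, adjusted p = 3.49e-10). Among the wild-type mice, mouse 3 had the highest monocyte value of all 3 chains. In the knockout mice the ratios within a mouse were 12.2 to 18.8 for C1qa, 8.29 to 11.5 for C1qb and 12.1 to 17.5 for C1qc, and all 3 genes were higher in macrophages in 4 of 4 mice of each genotype.

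The shares of the chains differed between the 2 cell types in these libraries, but the difference did not pass after adjustment. On the per-kilobase scale C1qb made up 49.81% ± 0.547 (SD, n = 4) of the C1q reads in wild-type macrophages and 61.01% ± 1.21 in wild-type monocytes. The share of C1qa was 27.57% ± 0.591 against 20.88% ± 1.01, and that of C1qc 22.62% ± 0.322 against 18.11% ± 0.582. The knockout mice showed the same pattern, with C1qb at 51.02% ± 0.59 in macrophages and 61.55% ± 1.31 in monocytes. None of the 6 shares overlapped between the cell types. Each gave p = 0.0286 in a two-sided exact permutation test over libraries, the smallest p that 4 against 4 allows. By that test the adjusted p was 0.0572 over the 12 share comparisons. The test treated the libraries as independent and did not use the pairing of both cell types within a mouse. Between genotypes the shares moved by at most 1.21 percentage points (adjusted p = 0.0979 to 0.743 over the same 12 exact tests). Around their group means the 3 chains rose and fell together, with Pearson's r of 0.914 to 0.987 over 16 libraries, a description that shares library and size factor.

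**Figure D2:**
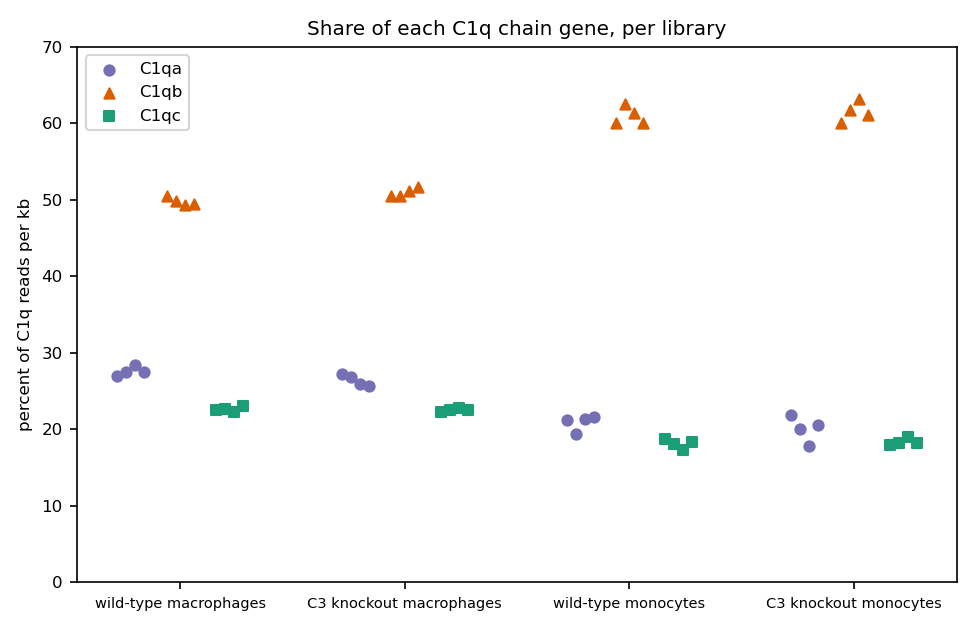
Share of each C1q chain gene (percent of the summed normalised reads per kilobase of exon of C1qa, C1qb and C1qc; vertical axis from 0) in each library of the 4 groups, with 1 point per mouse. C1qb lies near 50% in macrophages of both genotypes (49.36 to 51.76%) and at 60.05 to 63.2% in monocytes.

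The sequences upstream of the start sites are shown for the pair of C1q genes that moved together and have an entry in the RefSeq promoter table (GRCm38.p6), which held 5 of the 9 genes; capitals mark a match to one of the motifs searched. Only bases outside the GENCODE exons of the gene are printed, all from the minus strand and written 5′ to 3′: 250 bases for C1qb (chr4:136886201-136886450) and 99 for C1qc (chr4:136893066-136893164).
C1qb: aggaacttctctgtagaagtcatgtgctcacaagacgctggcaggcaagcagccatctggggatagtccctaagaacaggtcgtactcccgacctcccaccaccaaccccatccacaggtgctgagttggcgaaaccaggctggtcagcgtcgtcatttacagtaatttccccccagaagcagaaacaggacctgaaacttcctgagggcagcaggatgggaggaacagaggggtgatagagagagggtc
C1qc: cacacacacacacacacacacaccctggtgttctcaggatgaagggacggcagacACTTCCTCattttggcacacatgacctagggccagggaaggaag
The 250 bases before the RefSeq start were searched on both strands for an ETS site (GAGGAAGT), a MAF core site (TGCTGAC), a CEBP site (TTNNGCAAT), a GAS element (TTCNNNGAA), an IRF site (GAAANNGAA), an E-box (CACGTG) and the NF-kappaB consensus. C1qc held an ETS match, read on the strand opposite to the printed one, 195 to 188 bases before the start, and an NF-kappaB match 41 to 32 bases before it, inside a GENCODE exon and not printed. C1qb held no match to any of the 7. Of 32851 promoters in the table, 2.44% held the ETS letters and 3.9% the NF-kappaB consensus, and the GC content of 55.2% (C1qb) and 54.0% (C1qc) lay between the quartiles of all promoters (45.2 and 61.2%). A match is a description of the letters only.

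C1q itself activates nothing without its proteases, and their genes stood far below the C1q genes in these cells. C1ra, which encodes C1r, had 199 ± 18 normalised reads (SD, n = 4) in wild-type macrophages and 83.7 ± 18.5 in wild-type monocytes. Per kilobase these were 66.8 and 28.1. C1s1, which encodes C1s, was near the detection limit and never passed 10.8. C2, the protease of the classical C3 convertase, was near the detection limit as well, with 24.7, 14.59, 3.693 and 15.21 in the macrophages of mice 1 to 4 and 9.88, 8.986, 4.696 and 0 in their monocytes. In the knockout mice C2 had 6.205 to 9.53 in macrophages and 2.894 to 9.393 in monocytes. All groups of C2 overlapped and it was not tested.

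C4b encodes the main form of C4, which C1s and the lectin pathway proteases cleave. It had 619.5, 615, 509.7 and 487.7 normalised reads in wild-type macrophages and 295.2, 317.1, 263 and 187.5 in wild-type monocytes, with no overlap and a ratio of 2.1 (log2 difference 0.77 ± 0.11 SE, limma adjusted p = 9.38e-05). In knockout mice C4b was 1.63 times as high in macrophages (0.52 ± 0.13 SE, adjusted p = 0.00548), with an overlap from knockout mouse 9, whose monocytes had 403 against 373.2 in its macrophages. C4a, its near-identical neighbour, was listed at 9.65 or less in every library, and reads that fit both copies may not have been counted.

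Fcna encodes ficolin A, a lectin pathway recognition protein made by macrophages. It stood at 366.8, 327.7, 365.7 and 393 in the macrophages of wild-type mice 1 to 4 and at 22.23, 7.702, 31.93 and 26.16 in their monocytes. The gap was wide in every mouse (11.5- to 42.5-fold), the highest ratio coming from the low monocyte value of mouse 2. The means differed 16.5-fold (log2 difference 2.72 ± 0.16 SE, limma adjusted p = 8.40e-08). Fcnb, which encodes the other mouse ficolin, had the opposite distribution, with 127 to 290 in wild-type monocytes and 0 to 0.923 in wild-type macrophages (-3.78 ± 0.18 SE, adjusted p = 1.80e-08). Around Fcna, 5 of the 6 genes tested within 100 kb were also higher in wild-type macrophages, with 1 lower (4 and 1 in knockout mice). Of all 12769 genes tested in wild-type mice, 63.4% were called, 4050 higher and 4044 lower. The same windows held 1 higher and 3 lower of 6 genes around C3, of 7 around C4b and of 11 around C2. Around Cfb and Cfp they held 0 higher and 3 lower, of 8 and 7 genes. Around each C1q gene the other 2 were higher, of 3 tested. An antisense gene, Fcnaos, covers 6.55% of the exon bases of Fcna; it had 4.36 to 17.5 normalised reads, and the kit does not keep strand.

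C3, into which all arms feed, was higher in monocytes. It lies on chromosome 17 (57203970-57228136, minus strand, 42 exon blocks). C3 stood at 16130, 14610, 15270 and 14620 in the monocytes of wild-type mice 1 to 4 and at 3262, 4668, 4830 and 3272 in their macrophages. The groups did not overlap, and the means were 3.78-fold higher in monocytes (log2 difference macrophages minus monocytes -1.44 ± 0.09 SE, limma adjusted p = 5.45e-07). In libraries of the knockout mice the remaining C3 reads kept that distribution, 3.99-fold higher in monocytes (-1.35 ± 0.06 SE, adjusted p = 5.51e-09).

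Cfb encodes factor B, a protease of the alternative pathway, in the major histocompatibility region of chromosome 17 beside C2. In the monocytes of wild-type mice 1 to 4 it had 581.7, 457, 416.1 and 282.3 normalised reads, and in their macrophages 320.2, 377.1, 265.9 and 178.3. The groups overlapped, but the monocytes were higher in each of the 4 mice and both cell types were lowest in mouse 4. The log2 difference of -0.43 ± 0.19 SE did not pass (adjusted p = 0.0664), and with the mouse as a block it did (adjusted p = 0.00116; 0.00116 to 0.158 over the alternatives). In the knockout mice Cfb was 2.63-fold higher in monocytes (478.1, 339.8, 475.6 and 305.5 against 124.2, 172, 185.3 and 127.6; -0.95 ± 0.13 SE, adjusted p = 4.22e-05), with no overlap. Another gene model, Gm20547, covers 79.5% of the exon bases of Cfb and 42.8% of those of C2 on the same strand and was not used here, so the counts of both depend on how such reads were assigned.

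Cfp encodes properdin, the positive regulator that stabilises the alternative pathway convertase, and was nearly level across the groups. Wild-type macrophages had 15740, 17520, 15740 and 17730 normalised reads and wild-type monocytes 12810, 15070, 13300 and 14350. Macrophages were 1.2-fold higher, in 4 of 4 mice (log2 difference 0.19 ± 0.05 SE, limma adjusted p = 0.00699). In knockout mice macrophages had 15760, 19840, 14560 and 16500 and monocytes 13360, 15180, 17370 and 15880, and the difference of 0.08 ± 0.08 SE did not pass (adjusted p = 0.409); the difference between the genotypes did not pass either (-0.11 ± 0.10 SE, adjusted p = 0.736).

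**Figure D3:**
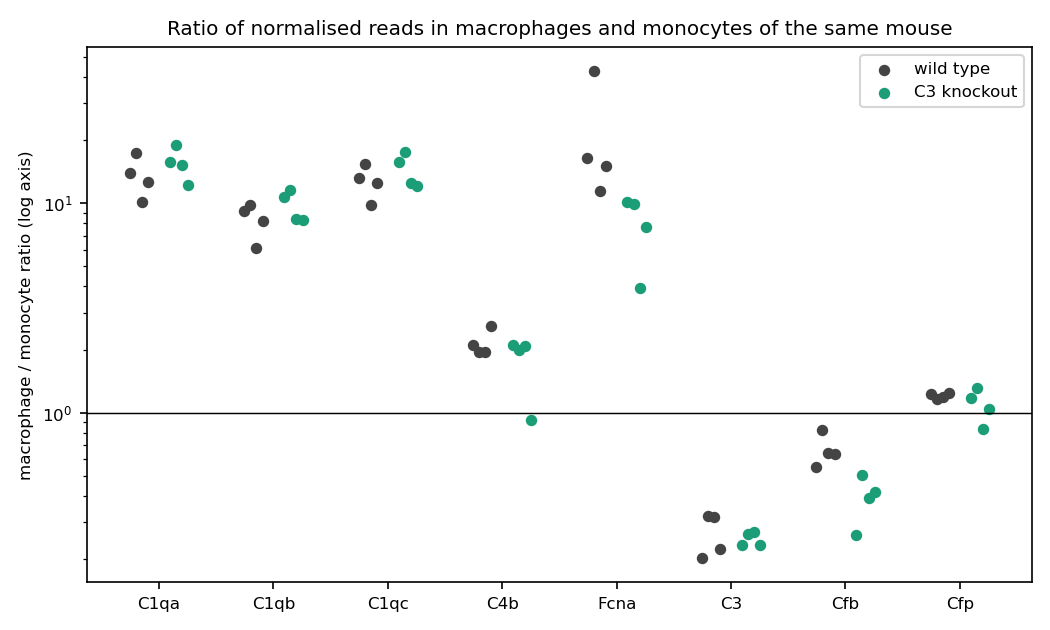
Ratio of normalised reads in macrophages to those in monocytes of the same mouse (logarithmic axis; the line marks equal levels), 4 mice per genotype, for the 8 tested genes. The C1q genes and Fcna lie well above the line in every mouse (3.94 to 42.5), C3 and Cfb below it (0.202 to 0.825), and Cfp close to it.

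In the knockout comparison C3 itself was called in both cell types, and of the other 7 tested genes only Fcna, in macrophages, passed. In macrophages 2 of the 8 tested genes were called, both lower in the knockout, where 5.7% of 12568 genes were called. In monocytes 1 of 8 was called, where 3.32% of 12867 genes were called. The median log2 difference (knockout minus wild type) of the 8 genes was -0.17 in macrophages and -0.12 in monocytes, against 0.00 and -0.01 over all genes tested. Groups did not overlap for 13.1% of all tested genes in macrophages and 11.1% in monocytes, against 2 of 8 and 1 of 8 here. C3, the targeted gene, is among the 8 in these medians and counts. In monocytes it was the only one of the 8 without overlap, and in macrophages the other was Fcna.

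C3 was lower in every knockout library than in any wild-type library of the same cell type, but reads remained. Knockout macrophages of mice 6 to 9 had 1077, 1368, 1390 and 1103 normalised reads, 30.8% of the wild-type mean (log2 difference -1.13 ± 0.11 SE, limma adjusted p = 0.000215). Knockout monocytes had 4624, 5204, 5137 and 4735, 32.5% of the wild-type mean (-1.22 ± 0.05 SE, adjusted p = 8.81e-08). The authors' deposited tables, turned from wild type over knockout to knockout minus wild type, give log2 fold changes of -1.70 for macrophages and -1.62 for monocytes. The fall in macrophages and monocytes differed by 0.09 ± 0.12 SE on the log2 scale (adjusted p = 0.844). The deposited values are per gene, and which exons the remaining reads cover was not analysed here.

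Some of the 10 listed markers of fibroblasts and sarcoma cells were present in the libraries, although such cells lie outside the CD45+ CD11b+ gate. Their 10 genes summed to 962 to 2630 normalised reads in wild-type and 209 to 1080 in knockout macrophages, and to 3850 to 7340 and 794 to 6180 in monocytes; Lum was at 0 in all knockout macrophages, and of the 6 tested genes limma called 0 in either cell type (at an unadjusted p under 0.05, 2 lower in macrophages and 0 in monocytes; 1 lower and 0 in the authors' deposited tables). Across the knockout monocytes C3 kept to 4624 to 5204 while that sum ran from 794 to 6180. Col3a1 was the largest part of these sums, with means of 908 in wild-type macrophages and 3340 in wild-type monocytes. Col1a1, Lum and Thy1 never passed 26.8, 3.86 and 7.51 in any library. Fap, unlike the sums, was higher in wild-type macrophages than in wild-type monocytes (means of 37.9 and 3.15). The part of fibroblasts and sarcoma cells in the C3 values was not tested.

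Fcna fell in knockout macrophages to 227.2, 226.1, 121.8 and 180.8 normalised reads in mice 6 to 9, which is 52.0% of the wild-type mean (log2 difference -0.74 ± 0.13 SE, limma adjusted p = 0.00829). No knockout library reached the lowest wild-type one (327.7). In monocytes the gene stood at 22.54, 22.9, 30.87 and 23.56 in knockout and 7.702 to 31.93 in wild-type mice, with overlap (0.11 ± 0.18 SE, adjusted p = 0.815). The difference between the cell types in the knockout effect was -0.85 ± 0.23 SE (adjusted p = 0.121; 0.0697 to 0.306 over the alternatives) and did not pass.

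Other transcripts moved in the same macrophage libraries. Of 7 macrophage markers limma called 3 lower, Apoe (adjusted p = 0.00929), Mrc1 (0.00567) and Mertk (0.0337), against 2 in the authors' deposited table. Adgre1, Csf1r, Cd68 and Fcgr1 had log2 differences of -0.04, -0.03, -0.07 and -0.02 and did not pass. The summed level of the 7, most of it Apoe (means of 305000 and 452000), was 411000 to 503000 in knockout against 548000 to 667000 in wild-type macrophages. Of 12 transcription factors listed as possible regulators of these genes, Maf fell (-0.38 ± 0.07 SE, adjusted p = 0.00693).

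Markers of other cells moved there too, mostly 1 gene per list. All 5 red blood cell genes fell, with sums of 321 to 625 in knockout and 870 to 2470 in wild-type macrophages. Of the 4 tested T cell markers Cd4 fell (-0.97, adjusted p = 0.00898), with T cell sums of 52.3 to 81.5 against 115 to 148. Of 3 tested endothelial markers Kdr rose (1.15, adjusted p = 0.000444), from a mean of 272 to 794, which makes up most of the endothelial sums (846 to 993 against 290 to 469); Cdh5 (-0.21) and Pecam1 (0.11) did not pass. Of 2 tested B cell markers Cd79b rose (0.94, adjusted p = 0.000741), with B cell sums of 135 to 200 against 57.5 to 99.8. Of the tested neutrophil (5), dendritic cell (5) and NK cell (2) markers limma called 0 (at an unadjusted p under 0.05, 2 neutrophil markers lower, 1 dendritic marker higher and 1 lower, and 1 NK marker higher; 0 in the authors' deposited table). The part of all these in the fall of Fcna was not tested.

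The sequences upstream of C3 and Fcna, the 2 genes called between genotypes, are also from the minus strand and outside GENCODE exons: 250 bases for C3 (chr17:57228137-57228386) and 194 for Fcna (chr2:25628031-25628224), with matches to the motifs in capitals.
C3: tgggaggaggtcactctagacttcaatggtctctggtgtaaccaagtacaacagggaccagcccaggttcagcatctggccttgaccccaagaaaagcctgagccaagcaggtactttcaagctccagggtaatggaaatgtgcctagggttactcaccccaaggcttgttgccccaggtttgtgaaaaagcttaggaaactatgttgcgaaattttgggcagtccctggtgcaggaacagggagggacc
Fcna: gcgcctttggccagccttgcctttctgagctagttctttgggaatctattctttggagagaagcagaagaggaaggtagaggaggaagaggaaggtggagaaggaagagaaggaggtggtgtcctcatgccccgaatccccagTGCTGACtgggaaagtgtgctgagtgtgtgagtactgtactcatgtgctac
Fcna held 1 match, the MAF core site, 107 to 101 bases before its RefSeq start; 3.81% of all promoters held these letters. The window of C3 held no match to the 7 motifs, nor did that of Cfp. The shares of all promoters with a match were 1.93% for CEBP, 7.02% for GAS, 7.13% for IRF and 6.02% for the E-box.

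Cfb in macrophages lay close to the threshold. Knockout mice 6 to 9 had 124.2, 172, 185.3 and 127.6 normalised reads against 320.2, 377.1, 265.9 and 178.3 in wild-type mice, and only wild-type mouse 4 fell within the knockout range. The knockout mean was 53.4% of the wild-type mean (log2 difference -0.59 ± 0.15 SE, limma adjusted p = 0.0512). Without wild-type mouse 4 the limma difference was -0.74 (adjusted p = 0.00713). The authors' deposited table, turned to knockout minus wild type, gives -0.90 with an adjusted p of 0.00632. Over all 15 alternatives the adjusted p ran from 0.00632 to 0.142. In monocytes Cfb did not pass (-0.07 ± 0.16 SE, adjusted p = 0.869), and the difference between the cell types did not pass (-0.52 ± 0.24 SE, adjusted p = 0.428).

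The classical pathway genes and properdin did not pass in either cell type. C1qa had 56250, 59730, 61960 and 62370 normalised reads in knockout macrophages, 91.8% of the wild-type mean (-0.10 ± 0.05 SE, adjusted p = 0.284), and C1qb and C1qc were at 98.3 and 95.7%. In knockout monocytes C1qa had 3573, 3171, 4083 and 5098, 78.9% of the wild-type mean (-0.20 ± 0.11 SE, adjusted p = 0.406), with C1qb at 83.7% and C1qc at 84.5%. All these groups overlapped. C4b was at 79.4% in macrophages (423.1, 461.2, 514.6 and 373.2; -0.24 ± 0.08 SE, adjusted p = 0.132) and at 102% in monocytes. Cfp stood at 16670 ± 2260 (SD, n = 4) in knockout against 16680 ± 1090 in wild-type macrophages, and at 15450 ± 1660 against 13880 ± 1020 in monocytes (adjusted p = 0.454).

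Whether the knockout effect differed between macrophages and monocytes was tested for the 8 genes in 1 fit of all 16 libraries, and 0 were called by limma, where 0.617% of 13134 genes were called. At an unadjusted p under 0.05, 2 genes passed, Fcna and Cfb. The count of called members was 0 in each of the 22 alternative fits of this difference as well, voom on the recovered reads included.

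**Figure D4:**
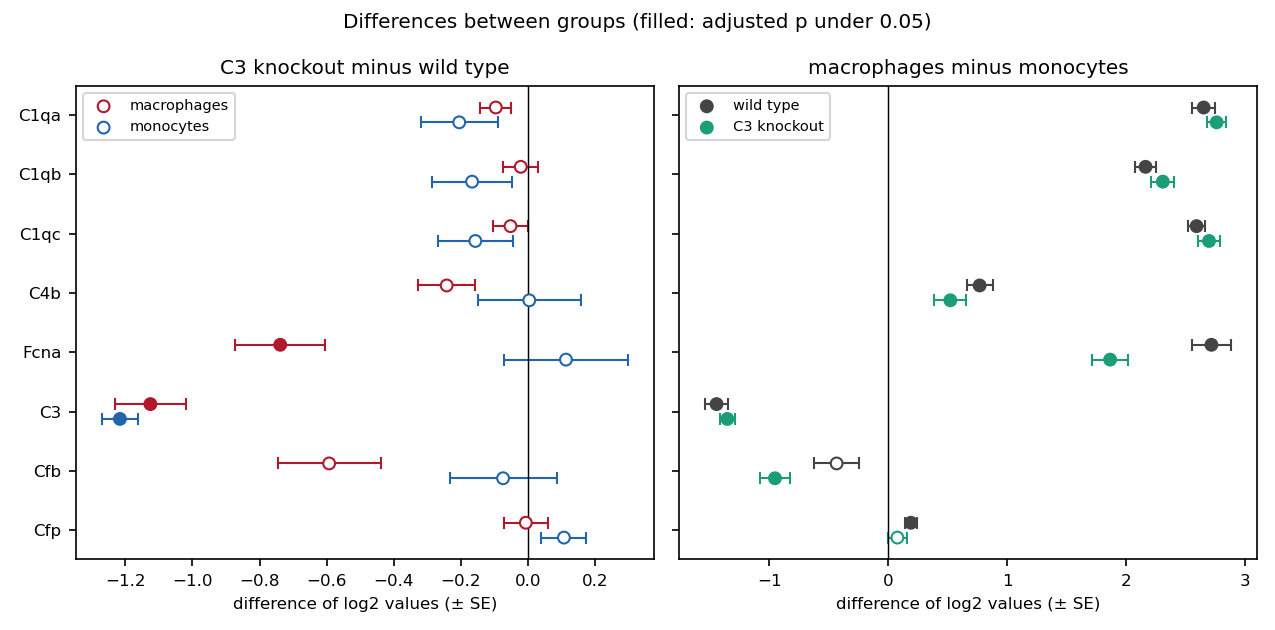
Differences of deposited log2 values ± SE from limma for the 8 tested complement genes, knockout minus wild type (left, macrophages and monocytes) and macrophages minus monocytes (right, wild-type and knockout mice). Filled points have an adjusted p under 0.05: C3 in both cell types and Fcna in macrophages on the left, and 7 of 8 genes in each genotype on the right.

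The remaining complement genes placed these 9 in context. Of 47 others reported here by role, 42 were found by symbol and 19 passed the filter in at least 1 comparison. Cfd, listed as a further protease of the alternative pathway, was not found. Receptors were the best represented, with 12 of 14 tested, against 4 of 10 recognition proteins and early proteases, 1 of 7 terminal components and 2 of 5 membrane regulators. The 23 that were never tested stayed at or below 22.8 normalised reads in every library, among them 6 of the 7 terminal components and Serping1, which encodes the C1 inhibitor.

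Between cell types 8 of these 19 genes were higher in macrophages and 7 lower in wild-type mice, and 8 and 6 in knockout mice, where 63.4 and 60.5% of all genes tested were called. C1qbp, which encodes a binding protein of the C1q heads, was higher in wild-type macrophages (2040 ± 41.8 against 891 ± 153, SD, limma adjusted p = 1.93e-06), as was Cd59a, which encodes a blocker of the membrane attack complex (99.2 ± 18.5 against 5.6 ± 5.33, adjusted p = 8.84e-07). Itgb2, which encodes the shared chain of complement receptors CR3 and CR4, was higher in monocytes (41900 ± 2720 against 23000 ± 1690, adjusted p = 1.27e-06). Itgam, which encodes the CD11b chain of CR3, was higher there too (9450 ± 1340 against 4880 ± 375, adjusted p = 8.34e-06). C1ra was higher in wild-type macrophages (0.85 ± 0.12 SE, adjusted p = 6.58e-05). In knockout mice its difference between cell types did not pass (0.29 ± 0.16 SE, limma adjusted p = 0.144). Knockout monocytes had 119 to 190 normalised reads of C1ra against 57.8 to 98.6 in wild-type monocytes. That difference did not pass (0.56 ± 0.14 SE, limma adjusted p = 0.0523). Masp1, which encodes a lectin pathway protease, was higher in wild-type monocytes (208 ± 92.4 against 90.7 ± 47.9, adjusted p = 0.0319).

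Between genotypes limma called 1 higher and 2 lower of 18 tested in knockout macrophages (0 higher and 2 lower in the authors' deposited table), where 5.7% of all genes tested were called. In knockout monocytes it called 0 higher and 4 lower of 19 (at an unadjusted p under 0.05, 1 higher and 5 lower; 1 higher and 5 lower in the authors' deposited table), where 3.32% of all genes were called. The medians of the log2 differences were -0.05 and -0.09, against 0.00 and -0.01 over all genes tested. Calr, whose product calreticulin binds C1q, rose in knockout macrophages by limma (0.23 ± 0.05 SE, adjusted p = 0.0253) but was not called in the authors' deposited table. C5ar2, which encodes the second C5a receptor, fell in both cell types, from 556 to 704 down to 300 to 421 in macrophages (-0.49 ± 0.08 SE, adjusted p = 0.00562) and from 640 to 706 down to 396 to 503 in monocytes (-0.42 ± 0.07 SE, adjusted p = 0.00561). Itgam fell in both too (-0.27, adjusted p = 0.0133, and -0.46, adjusted p = 0.0195). Lair1, which encodes an inhibitory receptor that binds C1q, fell in knockout monocytes (-0.47, adjusted p = 0.00847); the fourth called there, Itgax, is named after its value was seen (-0.53, adjusted p = 0.0386). CD11b and CD11c were part of the sorting gate, and no protein level was measured here. In the same monocyte libraries Cd209a, a dendritic cell marker, rose from 2.57 to 15.0 up to 128 to 790 normalised reads (adjusted p = 0.00418), and Retnlg, a neutrophil marker, from 6.42 to 69.8 up to 151 to 431 (adjusted p = 0.00794). Kdr rose as well (0.82, adjusted p = 0.0106), Hp, a monocyte marker, fell (-0.38, adjusted p = 0.00563), and of the 12 transcription factors Irf1 rose (0.60, adjusted p = 0.0335). The sums of dendritic cell markers were 2860 to 3760 in knockout against 3740 to 5100 in wild-type monocytes. Most of these sums was Itgax itself, with means of 2650 in knockout and 4420 in wild-type monocytes. Of the other dendritic cell markers, Flt3, Xcr1, Clec9a and Cd209a had higher means in knockout monocytes and Zbtb46 a lower one. Only Cd209a among them was called. The sums of neutrophil markers were 7060 to 10400 against 8170 to 12200. Of the 6 tested neutrophil markers limma called only Retnlg. At an unadjusted p under 0.05, 1 was higher and 3 were lower (1 higher and 1 lower in the authors' deposited table). S100a8, S100a9, Cxcr2 and Mmp8 had lower means in knockout monocytes, and Retnlg, Csf3r, Camp and Ly6g higher ones. Csf3r was the largest part of the sums, with means of 4600 in knockout and 4090 in wild-type monocytes. The part of all these markers in the falls was not tested.

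**Figure D5:**
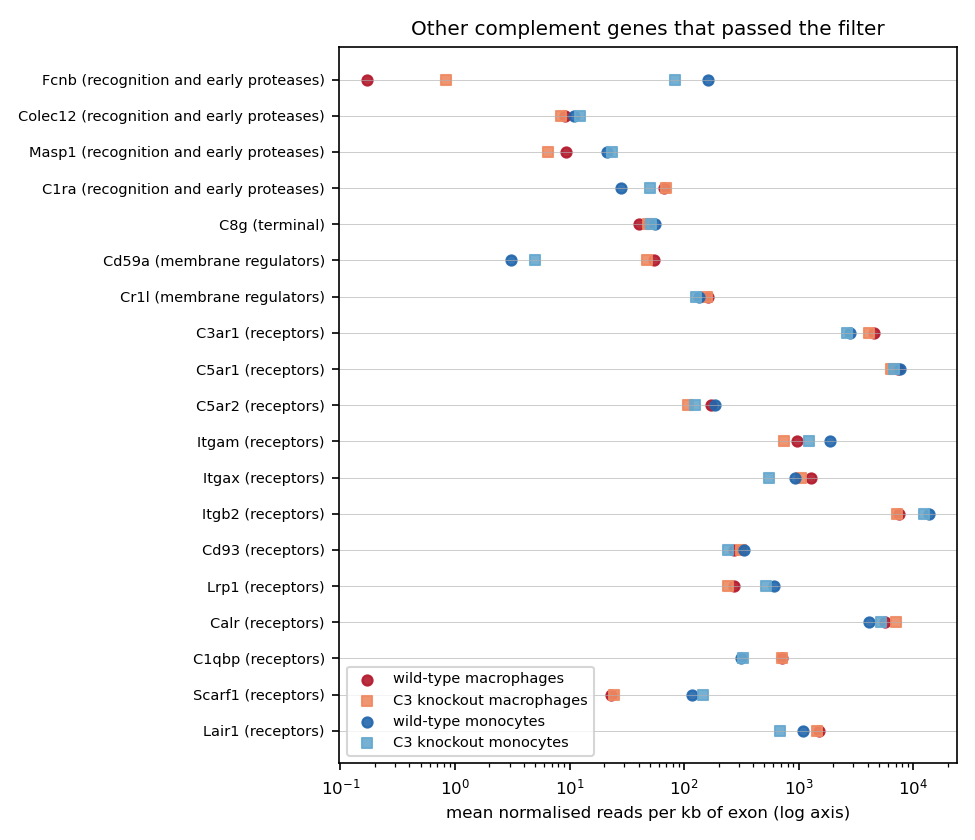
Mean normalised reads per kilobase of exon (logarithmic axis) of 19 other complement genes that passed the filter, by role, in the 4 groups. Fcnb and Cd59a show the widest gaps between cell types, in opposite directions, and the receptor genes Itgb2, C5ar1, Calr and C3ar1 are the highest.

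By likeness over the 16 libraries (Pearson's r of the deposited log2 values among 11387 genes), the genes most like C1qa were Blnk (0.997), Hpgds (0.996), Olfml3 (0.996), Ext2 (0.995) and Ntpcr (0.995), all higher in macrophages. For Fcna they were Sesn1 (0.995), Slc46a1 (0.985), Meis3 (0.985), Uap1l1 (0.984) and Wrb (0.984). Meis3, for example, had means of 745 in wild-type macrophages, 360 in knockout macrophages and 47.1 and 32.4 in the monocytes. For C3 they were Hspbap1 (0.976), Whamm (0.974), Dirc2 (0.971), Hbp1 (0.959) and Rell1 (0.95), of which Whamm had 427 and 203 in wild-type and knockout macrophages and 795 and 440 in monocytes. For Cfb they were Herc6 (0.932), H2-T22 (0.93), Parp12 (0.925), Oasl1 (0.922) and Tsta3 (0.92). These values describe 16 libraries of 4 groups and carry no test.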

How the data were processed

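Monocytes and macrophages from tumours of 4 wild-type and 4 C3 knockout mice gave 16 RNA libraries. Per the submitters' processing notes, the authors used bcl2fastq 2.19.0.316, STAR 2.7.2b, GRCm38 and DESeq2; the deposited matrix holds log2 values, which behave as regularised logarithms. The authors' deposited comparison tables give log2 fold changes, p-values, a test score (the Wald statistic) and an expression signal, the mean of size-factor scaled reads over all libraries.

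Size factors and reads were recovered by inverting the transformation: the recovered reads averaged to within 1% of that deposited signal in 99.74% of genes where it reached 1, and over the 9 members the largest distance from a whole read was 0.0839% of its value. Depth was 18689320 to 29049207 reads per library. The members, gene lists and tests were chosen with earlier results of these data known.

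The main test was limma 3.58.1 (R 4.3.3; trend and robust estimation) on the deposited log2 values of the 2 groups compared (all 16 libraries for the difference of knockout effects), for genes with a linear value of at least 10 in 4 libraries. The fitting code was also run on simulated reads on the log2(value + 1) scale, which is not the scale of the deposited values. Macrophages and monocytes with the same number come from the same mouse, and their deviations from the group means correlated at 0.0306 to 0.417 for the 8 mice. Pairs from different mice of the same genotype gave -0.323 to 0.188, which overlaps that range. The alternatives were another set of libraries, no filter, TMM scaling, voom on recovered reads, log2(value + 1), plain limma, a mouse block, each library left out and the authors' deposited tables. Exon lengths come from GENCODE M21 and promoters from RefSeq (GRCm38.p6). Genes named were all members, up to 3 called genes per role list and comparison, and the 5 genes most like C1qa, C3, Cfb and Fcna. From the role lists, 1 complement gene was left out and is not reported here.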

Additional observations from a re-analysis of the deposited data

Results flagged for a closer look

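In 36 combinations of gene and group, each with 4 libraries, 1 library stood far from the other three. Fcna in the monocytes of C3 knockout mouse 8 had 30.87 normalised reads, and the other libraries of the group had 22.54 to 23.56. The gap took 0.878 of the group's range, above Dixon's critical value for 4 libraries. Chance alone marks about 1 in 20 such groups. The value lies within the range of the wild-type monocytes (7.702 to 31.93).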

How the results depend on the processing

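All 17 called differences of the 9 genes kept their direction and their call in every alternative run. The members called were 2 to 3 in macrophages and 1 in monocytes between genotypes, 7 to 8 between cell types in wild-type mice, 7 in knockout mice, and 0 for the difference of effects. Cfb entered with TMM scaling (-0.61, adjusted p = 0.0491) in knockout macrophages, and between cell types in wild-type mice with all 16 libraries (adjusted p = 0.0367), without macrophages of mouse 2 (0.0357) and without monocytes of mouse 4 (0.0158). With the mouse number as a replicate block, 8 of 8 genes were called between cell types in wild-type mice (Cfb -0.43, adjusted p = 0.00116) and 7 of 8 in knockout mice, and no other call changed; wild-type and knockout mice share no number, so the genotype comparisons have no paired fit. Of 23 differences that were not called, 6 changed sign. For C3 the difference of effects became -0.0616 with voom and -0.0607 with log2(value + 1). Leaving out 1 library at a time gave -0.0503 to 0.0171 for C1qb and -0.069 to 0.0386 for Cfp in macrophages, and -0.1393 to 0.089 for C4b, -0.2112 to 0.0399 for Cfb and -0.0599 to 0.2165 for Fcna in monocytes. Over all genes, 427 were called between genotypes in monocytes, against 1329 in the authors' deposited table and 981 when both cell types were fitted together; for the difference of effects 81 rose to 139 with the replicate block. TMM scaling turned 4050 higher and 4044 lower genes between wild-type cell types into 4568 and 3517. C2, at 0 to 24.7 normalised reads, was too scarce to test.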
